A study of Mus musculus with 2 samples.

Results

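The genes described here are 35 transcripts by which the neurons and glia of the gut wall are recognized, of 18193 genes that the array reads with at least 1 gene-specific probe set. They were taken by name, and every probe set whose platform symbol, old or current, was one of the 35 was kept. All 35 genes were found, on 78 of the 45101 probe sets, and 14 of them had a single probe set. They were compared between 1 pool of Lrrc19 KO mice and 1 pool of WT mice. In the Lrrc19 KO pool, total RNA of 5 C57BL/6 mice lacking Lrrc19, which codes for a leucine-rich repeat receptor of the gut epithelium, was mixed in equal parts (2 males and 3 females, 6 weeks old, raised specific pathogen free). The WT pool was made in the same way from 5 C57BL/6 mice of the same sexes, age, and housing. Intestines were shaken in EDTA to release the epithelium, lymphocytes, macrophages, and dendritic cells were removed with magnetic beads, and each pool was hybridized to 1 Affymetrix mouse genome array. The part of the intestine is not named. Because each genotype was 1 pool on 1 array, the spread between mice is unknown and no test could be run.

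The enteric nervous system lies in plexuses between the muscle layers and beneath the mucosa. It arises from neural crest cells that migrate along the gut under the guidance of glial cell line-derived neurotrophic factor, which acts on RET, and of endothelin 3, which acts on the endothelin B receptor. Its neurons drive and relax the smooth muscle and control secretion and blood flow, and its glia surround the neurons and also reach the mucosa. Neuronal cell bodies lie outside the epithelium, the labeled cell type of both pools.

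A gene was read from its brightest probe set, and an intensity of 127, the median over both arrays without their control probe sets, was the floor under which a value was treated as dim. Of the 35 genes, 26 reached the floor, all of them in both pools, and 9 were under it in both (Nefm, Gap43, Syp, Chat, Slc18a3, Th, Npy, S100b, and Gfap). Of all 18193 genes, 12518 reached the floor in at least 1 pool. None of the 26 was 2-fold higher or 2-fold lower in the Lrrc19 KO pool, where 0.559% of the 12518 genes at or above the floor were higher and 0.407% were lower by that size. None passed 1.5-fold either, against 2.78% of all genes higher and 3.4% lower. Within these limits 19 of the 26 were higher in the Lrrc19 KO pool and 7 were lower, whereas 52.1% of all genes were higher. The log2 difference (Lrrc19 KO minus WT) had a median of 0.19 over the 26 genes, with a range of -0.30 to 0.52, and a median of 0.01 over all genes. These directions hold for the arrays as scaled by the depositors. When both arrays were centred on the hybridization spike-ins, 18 probe sets that were brighter in Lrrc19 KO by 0.50 on the log2 scale (median), the median of the 26 genes was -0.30 and that of all genes was -0.49. The distance between the median of these genes and that of all genes was 0.19 with that scaling and 0.18 in the values as deposited. Subtracting a constant from every difference cannot change this distance, apart from which genes reach the floor. In RNA of mixed cells, fewer cells of a type and less RNA per cell cannot be told apart.

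**Figure D1:**
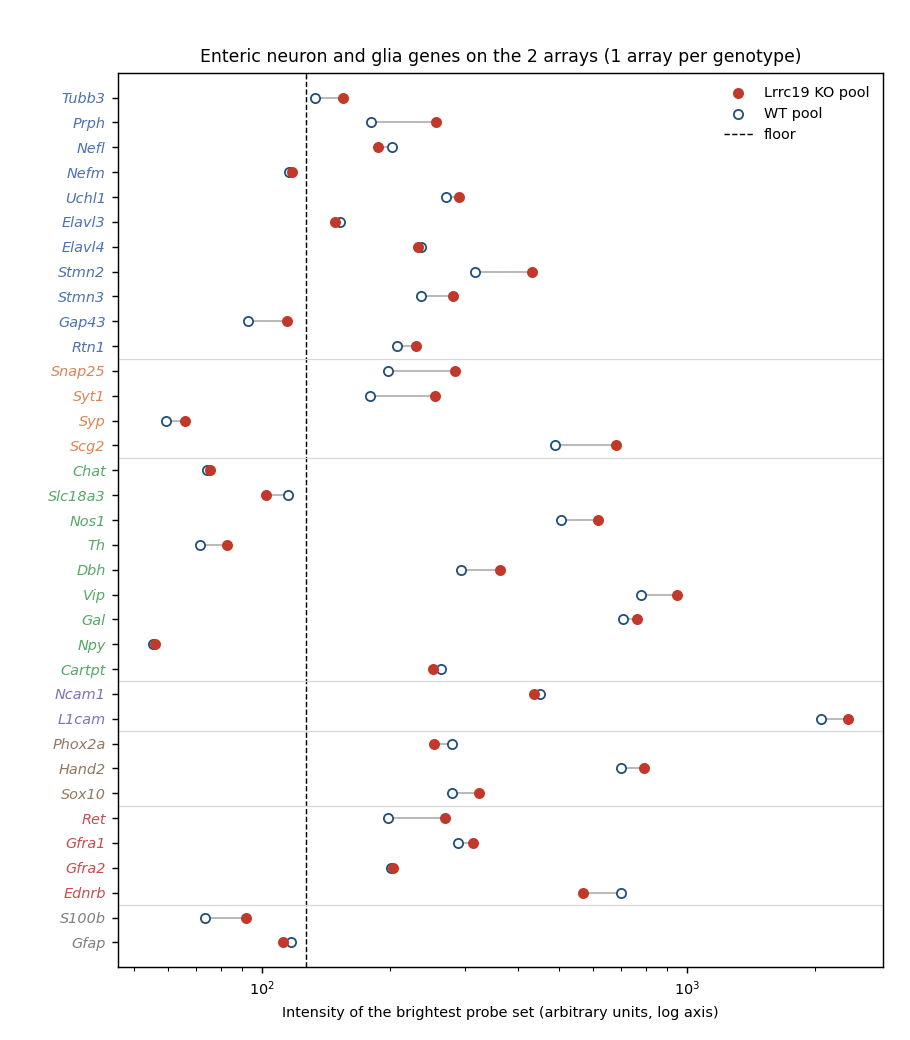
Intensity (arbitrary units, log axis) of the brightest probe set of each of the 35 genes in the Lrrc19 KO pool (filled) and in the WT pool (open circles). Each genotype had a single array, so there are no error bars. Label colors and grey lines separate the groups by role, and a dashed line marks the floor (127). The pairs lie close together for all genes, none 2-fold apart, and the brightness of different probe sets cannot be compared between genes.

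No replicate array gives an error for these differences. The closest measure is how far probe sets of the same gene lie from each other, an SD of 0.24 on the log2 scale over 5007 genes with at least 2 probe sets at or above the floor. The robust SD of the difference over all genes was 0.27. By that yardstick 9 of the 26 genes were more than 1 robust SD higher in the Lrrc19 KO pool (15.9% of all genes), namely Snap25, Prph, Syt1, Scg2, Ret, Stmn2, Dbh, Nos1, and Vip. Ednrb alone was more than 1 robust SD lower (16.8% of all genes). These counts depend on the scaling. With both arrays set to the same median, Dbh, Nos1, and Vip were at 0.22, 0.21, and 0.20, under that limit. With both centred on 10 control genes, Stmn3 was at 0.30 and Ednrb at -0.24. With the spike-in scaling the highest of the 26 was at 0.03 and the lowest at -0.79. Of the 11 genes with at least 2 probe sets at or above the floor, 9 had all of these probe sets on the same side of 0. Elavl4 and L1cam did not. The same share over all genes was not computed. Probe sets of a gene read the same pools, so their agreement does not replace a replicate. At the level of single probe sets, 29 of 41 at or above the floor were higher in the Lrrc19 KO pool, against 51.5% of all such probe sets.

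Genes of vesicle release differed most as a group, and all 3 that reached the floor were higher in the Lrrc19 KO pool. Snap25, a membrane protein of the complex that fuses synaptic vesicles, was at 285 in the Lrrc19 KO pool and 198 in the WT pool (1.44-fold, log2 difference 0.52). Syt1, the calcium sensor of fast release, was at 255 in Lrrc19 KO and 180 in WT (log2 difference 0.51). Scg2, secretogranin II, a granin of dense-core granules, was at 682 in Lrrc19 KO and 488 in WT (log2 difference 0.48). These 3 values stood between percentiles 95.2 and 96.2 of the differences of all genes. The other probe sets of Snap25 and Syt1 were under the floor in both pools, with Snap25 at 39.0 in Lrrc19 KO and 37.6 in WT. Syp, synaptophysin of the vesicle membrane, was under the floor as well (66.0 in Lrrc19 KO and 59.6 in WT). Snap25 and Scg2 are also expressed by enteroendocrine cells, whose marker list had a median log2 difference of -0.60. The part of these cells in the values of Snap25 and Scg2 was not tested. With the spike-in scaling Snap25 was at 0.03, Syt1 at 0.01, and Scg2 at -0.02.

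Of 11 structural and pan-neuronal genes, 9 reached the floor, 6 of them higher and 3 lower in the Lrrc19 KO pool. Prph, peripherin, the intermediate filament of peripheral neurons, was at 256 in Lrrc19 KO and 180 in WT (log2 difference 0.51). A second probe set of Prph gave 219 in Lrrc19 KO and 184 in WT (log2 difference 0.25), and its 2 dim ones differed by less. Prph was therefore higher on every probe set, by unequal amounts. Stmn2, a stathmin that loosens microtubules in growing axons, was at 431 in Lrrc19 KO and 318 in WT on one probe set and at 287 in Lrrc19 KO and 225 in WT on the other. The related Stmn3 was at 282 in Lrrc19 KO and 237 in WT, and at 189 in Lrrc19 KO and 142 in WT on its other probe set. All 4 probe sets of these stathmins were higher in the Lrrc19 KO pool, with log2 differences from 0.25 to 0.44.

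The other structural genes were closer to equal. Tubb3, the neuronal beta-tubulin, was at 155 in Lrrc19 KO and 134 in WT, little above the floor (log2 difference 0.21). Rtn1, a reticulon of the neuronal endoplasmic reticulum, was at 231 in Lrrc19 KO and 208 in WT (log2 difference 0.15). Uchl1, the ubiquitin hydrolase stained in pathology as PGP9.5, was at 291 in Lrrc19 KO and 271 in WT (log2 difference 0.10). These 3 differences were smaller than the SD between probe sets of a gene. Nefl, the light neurofilament chain, ran the other way on both of its probe sets, at 187 in Lrrc19 KO and 203 in WT on the brighter one (log2 difference -0.11). Nefm, the medium chain, and Gap43, a protein of growth cones, were under the floor (118 in Lrrc19 KO and 116 in WT for Nefm, 115 in Lrrc19 KO and 92.6 in WT for Gap43).

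The neuronal RNA-binding proteins Elavl3 and Elavl4, stained together as HuC and HuD to count enteric neurons, gave no common direction. Elavl3 was at 149 in Lrrc19 KO and 152 in WT on its single probe set at or above the floor. Elavl4 was at 233 in Lrrc19 KO and 237 in WT on its brightest probe set (log2 difference -0.02). The other 2 probe sets of Elavl4 were at 253 in Lrrc19 KO and 162 in WT, and at 145 in Lrrc19 KO and 90.3 in WT (log2 differences 0.65 and 0.68). The difference of Elavl4 therefore depended on the probe set, with the 2 dimmer ones past 1.5-fold and the brightest at -0.02. The brightest one is of a kind that can match several transcripts of a gene, and without such probe sets Elavl4 had the largest difference of all the genes described here.

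Among 9 genes of transmitters and neuropeptides, 5 reached the floor, and 4 of these were higher in the Lrrc19 KO pool. Nos1, which makes the nitric oxide by which inhibitory motor neurons relax the muscle, was at 618 in Lrrc19 KO and 506 in WT (log2 difference 0.29). All 4 probe sets of Nos1 were higher in Lrrc19 KO, the second at 175 in Lrrc19 KO and 135 in WT and the others under the floor. Vip, the relaxing and secretion-promoting peptide often made by the same neurons, was at 946 in Lrrc19 KO and 782 in WT (1.21-fold, log2 difference 0.28). These markers of inhibitory neurons were thus higher by similar, small amounts. Dbh, which makes noradrenaline from dopamine, was at 363 in Lrrc19 KO and 294 in WT (log2 difference 0.30), on a probe set that can match several transcripts. Its 2 others were under the floor, 1 at 119 in Lrrc19 KO and 99.2 in WT and 1 at 115 in both pools. Gal, galanin, was at 761 in Lrrc19 KO and 708 in WT (log2 difference 0.10). Cartpt, the precursor of the CART peptide, was at 253 in Lrrc19 KO and 265 in WT (log2 difference -0.06).

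The remaining transmitter genes were dim in both pools. Chat, which makes acetylcholine, was at 75.6 in Lrrc19 KO and 74.2 in WT. Slc18a3, the vesicular acetylcholine transporter whose gene lies within Chat, was at 102 in Lrrc19 KO and 115 in WT. The 2 genes that define cholinergic neurons were thus under the floor, and no fold is given for them. Th, the enzyme that starts catecholamine synthesis, was at 82.6 in Lrrc19 KO and 71.5 in WT, and the neuropeptide gene Npy was at 56.0 in Lrrc19 KO and 55.5 in WT. Sympathetic fibers use both, and Dbh was the only one of these 3 to reach the floor.

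**Figure D2:**
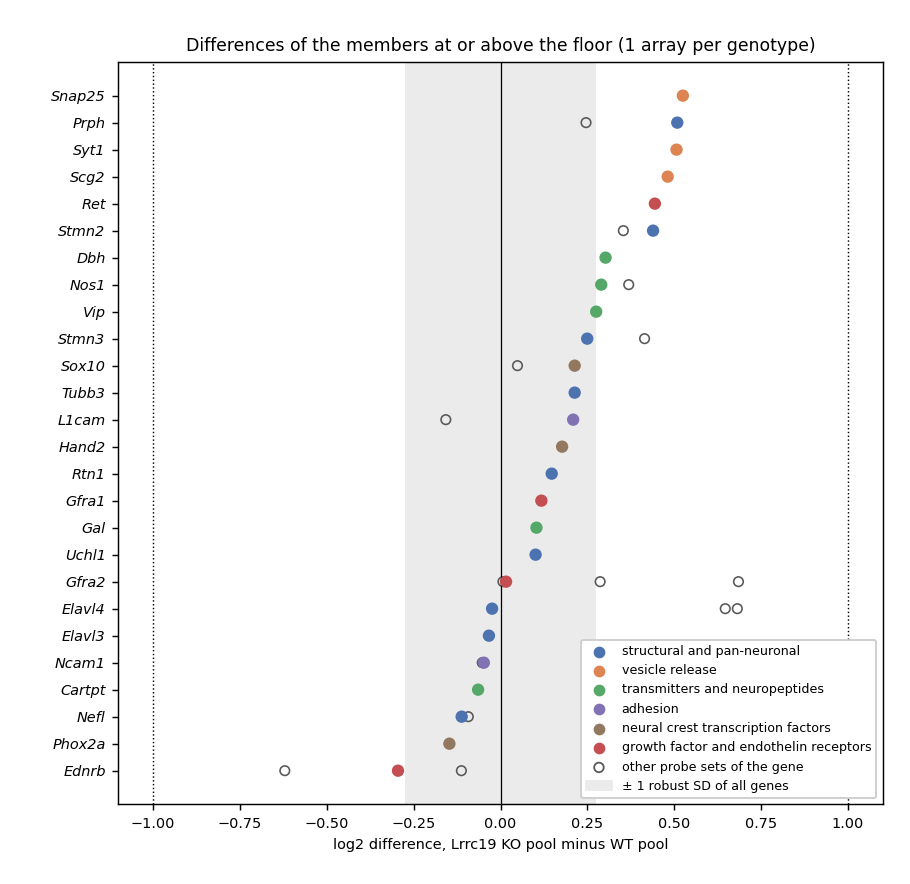
Log2 difference (Lrrc19 KO pool minus WT pool) of the 26 genes at or above the floor, read from the brightest probe set (filled, colored by role), with the other probe sets of the gene that reached the floor (open circles); 1 array per genotype. The grey band is 1 robust SD of all genes (0.27) to either side of 0, and dotted lines mark 2-fold. Most genes lie right of 0 in the values as deposited (23 of 26 lie left of it with the spike-in scaling), Ednrb is the lowest, and the open circles of Elavl4 lie far from its filled point.

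Several of the peptide and amine genes are textbook targets of the cyclic AMP response element, the site TGACGTCA. Promoters of 26 of the 35 genes were found in the RefSeq sequences of build GRCm38.p6, in 33 windows of 300 bases. Of these, 3 hold the full site, in Scg2, Cartpt, and Th, against 1.79% of all 32851 windows. The site reads the same on both strands. Its first 6 letters, TGACGT, searched on both strands and contained in the full site, occur in 7 of the 33 windows (7.51% of all windows), among them that of Vip. The 150 bases before 1 start of each of these 4 genes are shown. They carry the full site or, in Vip, only these 6 letters, at different distances from that start. A gene can have several starts, and in Cartpt and Vip the start used lies inside the annotated gene. The full site begins 68, 112, and 45 bases before the start in Scg2, Cartpt, and Th, and the 6 letters begin 79 bases before it in Vip. Capitals mark the full site, and in Vip the 6 letters.
Scg2, chr1:79440027-79440176, minus strand: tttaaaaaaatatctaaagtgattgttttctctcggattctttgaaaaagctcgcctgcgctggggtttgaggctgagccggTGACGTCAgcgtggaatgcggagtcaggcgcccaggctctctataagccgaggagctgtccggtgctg
Cartpt, chr13:99900684-99900833, minus strand: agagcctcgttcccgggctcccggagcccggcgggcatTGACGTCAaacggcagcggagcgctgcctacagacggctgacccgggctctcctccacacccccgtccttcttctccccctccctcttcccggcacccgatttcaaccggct
Th, chr7:142899996-142900145, minus strand: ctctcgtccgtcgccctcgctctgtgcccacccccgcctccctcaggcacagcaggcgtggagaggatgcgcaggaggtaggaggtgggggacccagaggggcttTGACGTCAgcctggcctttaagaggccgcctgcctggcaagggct
Vip, chr10:5639068-5639217, plus strand: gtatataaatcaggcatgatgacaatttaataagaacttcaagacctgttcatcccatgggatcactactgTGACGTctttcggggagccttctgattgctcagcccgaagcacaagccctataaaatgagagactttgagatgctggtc
The genes that hold the full site did not share a difference on the arrays. Scg2 had a log2 difference of 0.48 and Cartpt of -0.06, and Th was under the floor. A match of letters is a description of the sequence and says nothing about the binding of a factor.

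Of the 3 neural crest transcription factors, 2 were higher and 1 was lower in the Lrrc19 KO pool, with a median log2 difference of 0.18, near that of the whole list (0.19). Hand2, a transcription factor needed for enteric neurons to differentiate, was at 792 in Lrrc19 KO and 700.2 in WT (log2 difference 0.18). All 3 of its probe sets were higher in Lrrc19 KO, but only 1 of them reached the floor. Phox2a, a homeobox factor of autonomic neurons, was at 254 in Lrrc19 KO and 281 in WT (log2 difference -0.15). Sox10, which keeps crest progenitors and then marks glia, was at 325 in Lrrc19 KO and 280 in WT, and on its second probe set at 269 in Lrrc19 KO and 260.3 in WT. These differences lay within 1 robust SD of all genes.

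The receptors through which crest cells are guided went in opposite directions. Ret, the kinase that receives the neurotrophic signal, was at 270.1 in Lrrc19 KO and 198 in WT (1.36-fold, log2 difference 0.44), while its other probe set, under the floor, was at 80.5 in Lrrc19 KO and 92.0 in WT. Gfra1, the coreceptor that presents this factor to RET, was at 314 in Lrrc19 KO and 290 in WT (log2 difference 0.12). Gfra2, the coreceptor for neurturin, was at 203 in Lrrc19 KO and 201 in WT on its brightest probe set (log2 difference 0.02), and on its 3 others at or above the floor the log2 difference ran from 0.01 to 0.68. These receptors of the neurotrophic signal lay above 0 on their brightest probe sets, with Gfra2 next to 0. Ednrb, the endothelin B receptor, had the lowest difference of the 26 genes, at 571 in Lrrc19 KO and 701 in WT (1.23-fold lower, log2 difference -0.30). Its other 2 probe sets were at 165 in Lrrc19 KO and 254 in WT (log2 difference -0.62), and at 157 in Lrrc19 KO and 170 in WT (log2 difference -0.11). All 3 were lower in the Lrrc19 KO pool. Ednrb remained below 0 under every scaling tried, as did Nefl, Cartpt, and Phox2a. Endothelial cells and fibroblasts express this receptor too.

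Adhesion molecules and glial genes completed the list. L1cam, an adhesion molecule that also helps crest cells to migrate, was at 2393 in Lrrc19 KO and 2070.0 in WT (log2 difference 0.21), and at 123 in Lrrc19 KO and 138 in WT on its second probe set, which reached the floor in the WT pool only. Ncam1, the neural cell adhesion molecule, was at 437 in Lrrc19 KO and 451 in WT (log2 difference -0.05), and its second probe set at or above the floor gave the same difference to 2 decimals. The 5 other probe sets of Ncam1 were under the floor and went both ways. Of the glial proteins, the calcium binder S100b (91.7 in Lrrc19 KO and 73.6 in WT) and the filament Gfap (112 in Lrrc19 KO and 117 in WT) were under the floor on every probe set. Sox10 was therefore the only glial gene of the list measured above it.

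A wider set of neural genes was chosen for role, with earlier results of these data known. Of its 56 genes at or above the floor, 73.2% were higher in the Lrrc19 KO pool, against 52.1% of all genes. Of 28 other neuronal genes on the array 21 reached the floor. Of these, 18 were higher in the Lrrc19 KO pool (85.7%) and none passed 2-fold. Their median log2 difference was 0.18 (-0.32 with the spike-in scaling). The largest differences were those of the synaptic vesicle protein Sv2a (316 in Lrrc19 KO and 176 in WT, log2 difference 0.85), the microtubule protein Map1b (362 in Lrrc19 KO and 264 in WT), and the neuronal enolase Eno2 (180 in Lrrc19 KO and 131 in WT). Of 24 transmitter genes and receptors 14 reached the floor, 9 higher (64.3%) and 5 lower, with a median of 0.09. Here the sensory peptide gene Calcb (493 in Lrrc19 KO and 256 in WT, log2 difference 0.95), Nmu, neuromedin U (712 in Lrrc19 KO and 479 in WT), and Tac1, the precursor of substance P (1300 in Lrrc19 KO and 946 in WT), differed most, all peptides of enteric neurons. Calcb came closest to 2-fold of these neural genes.

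The other glial and Schwann cell genes were less one-sided than the neuronal ones, and the signaling genes were higher about as often as the listed genes. Of 12 other glial and Schwann cell genes 10 reached the floor, 6 higher (60%, against 52.1% of all genes) and 4 lower. Their median log2 difference was 0.05 (-0.03 with both arrays set to the same median). The water channel Aqp4, which the gut epithelium also makes (5612 in Lrrc19 KO and 4204 in WT), and the myelin enzyme Cnp (971 in Lrrc19 KO and 1276 in WT) differed most. The glial markers Foxd3 (213 in Lrrc19 KO and 245 in WT), Entpd2 (609 in Lrrc19 KO and 605 in WT), and Cdh19 (177 in Lrrc19 KO and 149 in WT) stood on both sides. Of 15 ligands, receptors, and coreceptors 11 reached the floor, 8 higher (72.7%) and 3 lower, with a median of 0.19. The medians of these 4 neural lists were all below 0 with the spike-in scaling. Of the ligands of the receptors above, Gdnf was at 153 in Lrrc19 KO and 156 in WT (log2 difference -0.03), and Nrtn, neurturin, at 228 in Lrrc19 KO and 262 in WT (-0.20). Edn3, endothelin 3, was at 323 in Lrrc19 KO and 270.1 in WT (log2 difference 0.26). It was higher on all 4 of its probe sets, of which 2 reached the floor (log2 differences 0.26 and 0.05). Its receptor Ednrb was lower on all of its own. Bmp2 (1379 in Lrrc19 KO and 880.4 in WT, log2 difference 0.65) and the coreceptor Gfra4 (292 in Lrrc19 KO and 231 in WT) differed most.

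Marker lists of other cells differed too. All 9 smooth muscle markers reached the floor and were higher in the Lrrc19 KO pool, with a median log2 difference of 0.40 (-0.10 with the spike-in scaling), and their summed intensity was 69685 in Lrrc19 KO and 52479 in WT. On the brightest probe sets Des, Cnn1, and Myh11 differed most, at 6581, 8799, and 8349 in Lrrc19 KO against 4206, 5995, and 5685 in WT. The probe sets of Des disagreed, with log2 differences of 0.65 and -0.12 and a mean of 0.26. Of the interstitial cells of Cajal, the pacemaker cells of the muscle, Ano1 was at 1456 in Lrrc19 KO and 842 in WT and Kit at 529 in Lrrc19 KO and 589 in WT. Enteroendocrine markers ran the other way, with all 11 at or above the floor lower in the Lrrc19 KO pool and a median log2 difference of -0.60. The summed intensity of all 14 on the array, with Insm1, Cck, and Gip under the floor, was 9628 in Lrrc19 KO and 14276 in WT. Gcg, Nts, and Pcsk1 led these with log2 differences of -0.99, -0.96, and -0.86. Enterocyte markers had a median of 0.09 over 9 genes, from which the chloride exchanger Slc26a3 stood apart (8844 in Lrrc19 KO and 4525 in WT, log2 difference 0.97, higher on all 4 probe sets), followed by Cdh1 (0.28) and Car1 (-0.25). Leukocyte markers had a median of 0.05 over 5 genes. The macrophage marker Adgre1 was at 363 in Lrrc19 KO and 606 in WT (log2 difference -0.74), and Cd3e at 0.13. Cd8a was at 0.23 on its brightest probe set and lower on its 4 others, with 3 of all 5 at or above the floor. The fibroblast markers had a median of 0.08 over 6 genes, with Col1a2 and Pdgfra at 0.21 and Dcn at -0.15, and the endothelial markers one of -0.18 over 5, led by Cdh5 (-0.24), Plvap (-0.20), and Kdr (-0.18). The fibroblast and leukocyte medians were below 0 with both arrays set to the same median, as all 4 were with the spike-in scaling. The adipocyte markers Adipoq (24.4 in Lrrc19 KO and 313 in WT) and Fabp4 (648 in Lrrc19 KO and 1372 in WT) were lower in Lrrc19 KO by more than 2-fold. The part of smooth muscle or of any other cell type in the values of the neural genes was not tested.

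**Figure D3:**
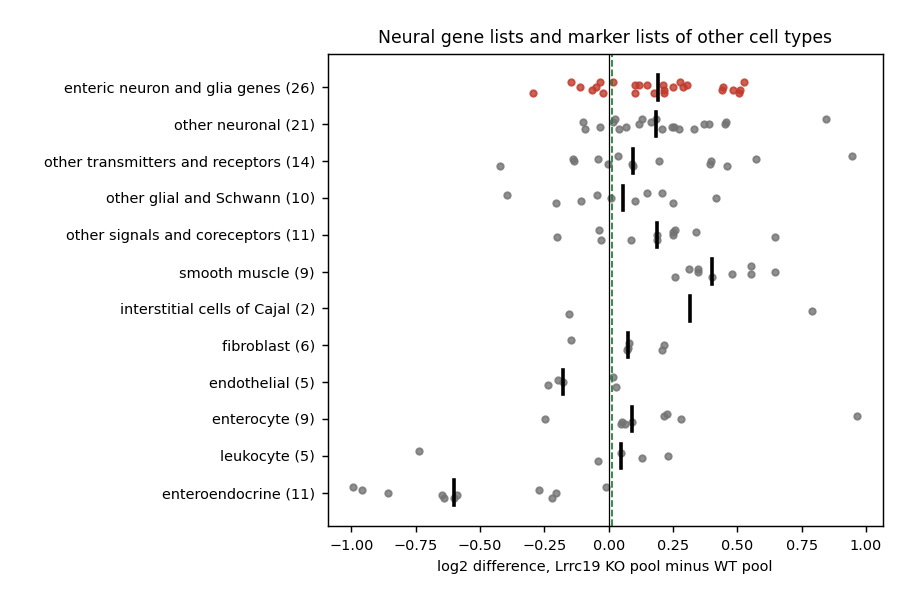
Log2 difference (Lrrc19 KO pool minus WT pool) of each gene at or above the floor (points, 1 array per genotype) in the enteric neuron and glia genes (red), in other neural lists, and in marker lists of other cell types (grey), with the number of genes in parentheses (adipocyte markers are not drawn). Black bars are list medians, and the dashed green line is the median of all genes (0.01). The red points center on 0.19, smooth muscle markers lie at 0.40, and enteroendocrine markers lie left of 0; a shift of the scaling moves all points alike, by -0.50 with the spike-ins.

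The list was also read against the level of its genes, because dim probe sets were slightly brighter on the Lrrc19 KO array. The lower quartile of all values was 59.9 in Lrrc19 KO and 55.9 in WT, whereas the upper quartile was 354 in Lrrc19 KO and 353 in WT. All genes at or above the floor were split at the quartiles of their mean level, 226, 432, and 932. In the dimmest group, which held 7 of the 26 genes, the median log2 difference was 0.15 for the 7 and 0.05 for all 3130 genes. In the next it was 0.21 for 11 of the list and 0.02 for all genes, and in the one after it was 0.18 for 7 of the list and 0.003 for all genes. L1cam alone lay in the brightest group, at 0.21 against -0.03 for all genes there. The median of the list was above that of all genes in each of these groups, the brightest of which held L1cam alone. The 9 genes under the floor had a median of 0.03 against 0.04 for all 5675 such genes. The part of the level in the differences of the list was not tested.

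The arrays as a whole set the frame of these values. Lrrc19 itself was at 212 in Lrrc19 KO and 905 in WT on its brightest probe set, and at 20.9 in Lrrc19 KO and 391 in WT on the other, but the sources used here do not say which exons were deleted. Over all genes 70 were at least 2-fold higher and 51 lower in the Lrrc19 KO pool in the values as deposited, 53 and 76 with both arrays set to the same median, 87 and 37 with both centred on 10 control genes, and 22 and 657 with both centred on the spike-ins. All 9 enterocyte markers and all 5 leukocyte markers on the array reached the floor, as did all 9 of smooth muscle and 12518 of all 18193 genes.

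**Figure D4:**
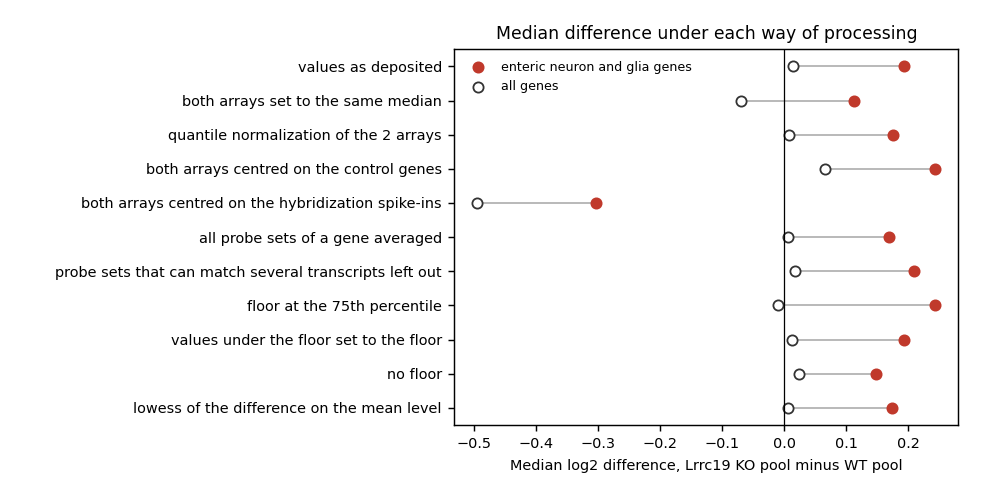
Median log2 difference (Lrrc19 KO pool minus WT pool) of the enteric neuron and glia genes (filled) and of all genes (open) at or above the floor under each way of processing. With a single array per genotype there are no error bars. The filled point lies right of the open one in every row. Both lie left of 0 when the arrays are centred on the hybridization spike-ins (-0.30 and -0.49). Scalings that subtract a constant from every difference cannot change the distance between the points, apart from which genes reach the floor.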

How the data were processed

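The authors deposited linear intensities from 1 to 25842 for 45101 probe sets on each of 2 arrays. RMA, without a version, is the tool in the submitters' processing notes. RMA usually gives log2 values of equal distribution, whereas these are linear with medians of 131 in Lrrc19 KO and 124 in WT, so how they were scaled to each other is unknown here, and a scaling error would shift every log2 difference by a constant.

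Values were set to at least 1 and log2 was taken (Python 3.11.15, pandas 2.3.3, numpy 2.4.6). Besides 64 controls, which were not used, 34945 probe sets had 1 symbol in the platform annotation, brought up to date by gene identifier with RefSeq of GRCm38.p6. Another 932 had several symbols and 9160 had none here, and neither kind was used. A gene was read from its probe set with the highest mean log2 of both arrays. The floor, the 50th percentile of the non-control values, was reached by 12518 genes on at least 1 array. The difference was Lrrc19 KO minus WT, counted from 2-fold. With 1 array per genotype no test was run, and precision is limited by the number of arrays. The collapse and the counts were tested on simulated data, with shifts put into bright genes. These shifts were larger than any difference of the list, so differences as small as those of the list were not tested. The genes, their groups by role, and the other lists were chosen with earlier results of these data known. All 35 genes could be named. From other lists, genes past 2-fold were named, or else the 3 with the largest difference, besides ligands of the receptors and markers of glia. Alternatives changed the scaling, the choice of probe sets, and the floor, and a lowess correction (statsmodels 0.14.6) was added after the data were seen.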

Additional observations from a re-analysis of the deposited data

How the results depend on the processing

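No gene of the list passed 2-fold in either direction with any of 9 other ways of processing or with the lowess correction, and none passed 1.5-fold as deposited. The median log2 difference, 0.19 as deposited, was between 0.11 and 0.24 under 9 of these 10. With the arrays centred on the spike-ins it was -0.30, and 3 genes of 26 were above 0, since this scaling subtracts 0.50 from every difference. With the floor at the 75th percentile, an intensity of 354, only 10 genes remained, 8 of them above 0. The median stayed above that of all genes by 0.12 to 0.25 under all 10. The same median, control gene, and spike-in scalings subtract a constant from every difference. They cannot change this distance, apart from which genes reach the floor, and so do not test it.

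Of 235 values of single genes under the alternatives, 206 moved by less than the SD between probe sets of a gene (0.24) and 29 by more, 26 of these with the spike-ins. The others were Elavl4, at 0.43 with all probe sets averaged and 0.65 without those that can match several transcripts, and Ret, at 0.13 with all probe sets averaged. Many of the 235 values could not go either way. The floor settings leave the value of a gene unchanged. The scalings by the same median, the control genes, and the spike-ins subtract 0.08, -0.05, and 0.50 from every gene alike. No paired analysis was possible because each genotype had 1 array. Differences under about 0.5 on the log2 scale are open to the scaling, and values under the floor have no reliable order.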
